A study of Mus musculus with 6 samples.

Results

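Immunoreceptors of the paired and C-type lectin families are the surface proteins through which macrophages weigh activating against inhibitory signals. In bone marrow-derived macrophages of control and Morrbid conditional knockout mice, 83 of the 16138 genes in the authors' deposited table belonged to these families by symbol. They were gathered by a rule on gene symbols: the numbered Clec lectins, Siglec, Lilr, Pira and Pirb, Cd300, Fcgr, Fcer1, Trem, Slamf, Pilr and Sirp genes, with Tarm1, Oscar, Lair1, Mgl2, Treml2 and the adaptor genes Tyrobp and Hcst. The rule itself used no measured value, but it was chosen with earlier results of these data known. Marrow cells had been grown into macrophages with 50 ng/ml of macrophage colony-stimulating factor (M-CSF) and 20% serum for 7 days. Control samples had the genotype Morrbidfl/fl, a Morrbid gene flanked by recombination sites (3 samples). Knockout samples, called cKO here, had the genotype Morrbidfl/fl/Lyz2-Cre (3 samples), in which Cre is driven from the locus of the myeloid lysozyme gene. All samples of both genotypes carried the flanked gene, and no control carried Cre, so the loss of Morrbid cannot be told apart from the presence of Cre in the Lyz2 locus. Age, sex and the number of animals are not given in the sources used here, so each p-value rests on the spread among these samples alone, and that spread may be technical. The table held 1 ratio, 1 p-value and 1 q-value per gene. Values per sample, expression levels and sequencing depth were therefore not analysed here.

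Paired receptors are sets of related proteins, often encoded side by side, in which some members restrain a cell and others activate it. Inhibitory members carry tyrosine motifs in their tails that recruit the phosphatases SHP-1, SHP-2 and SHIP-1. Most activating members instead have short tails and signal through adaptors. The adaptors DAP12 (Tyrobp) and the Fc receptor gamma chain (Fcer1g) act through the kinase Syk, and DAP10 (Hcst) is a further adaptor. C-type lectin receptors use the same wiring to report microbial sugars, dead cells and other ligands.

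Among these genes, the macrophages of cKO mice had more transcript of the lectins Clec4a1 and Clec4a2, the inhibitory receptor gene Pirb, the activating receptor gene Tarm1, the SLAM-family gene Slamf8 and the CD300-family gene Cd300ld4, and less of the lectin gene Clec2i. The call rested on the q-value, which is the p-value adjusted over all genes, with a threshold of 0.05. By that threshold 6 of the 83 genes rose and 1 fell in the authors' deposited table. That is 8.43% of the receptor genes, where 1.72% of all genes in the authors' deposited table were called in either direction. By direction, 7.23% of the receptor genes rose, against 0.849% of all genes, and 1.2% fell, against 0.874%. At an unadjusted p under 0.05 there were 15 receptor genes above 0 (18.1%, against 4.32% of all genes) and 5 below (6.02%, against 4.52%). In either direction these were 24.1% of the receptor genes, against 8.84% of all genes in the authors' deposited table. The remaining 76 receptor genes did not pass. Across all 83 genes the median log2 fold change, cKO over control, was 0.12 in the authors' deposited table, with 50 genes above 0 and 33 below, beside a median of -0.01 for all genes.

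**Figure D1:**
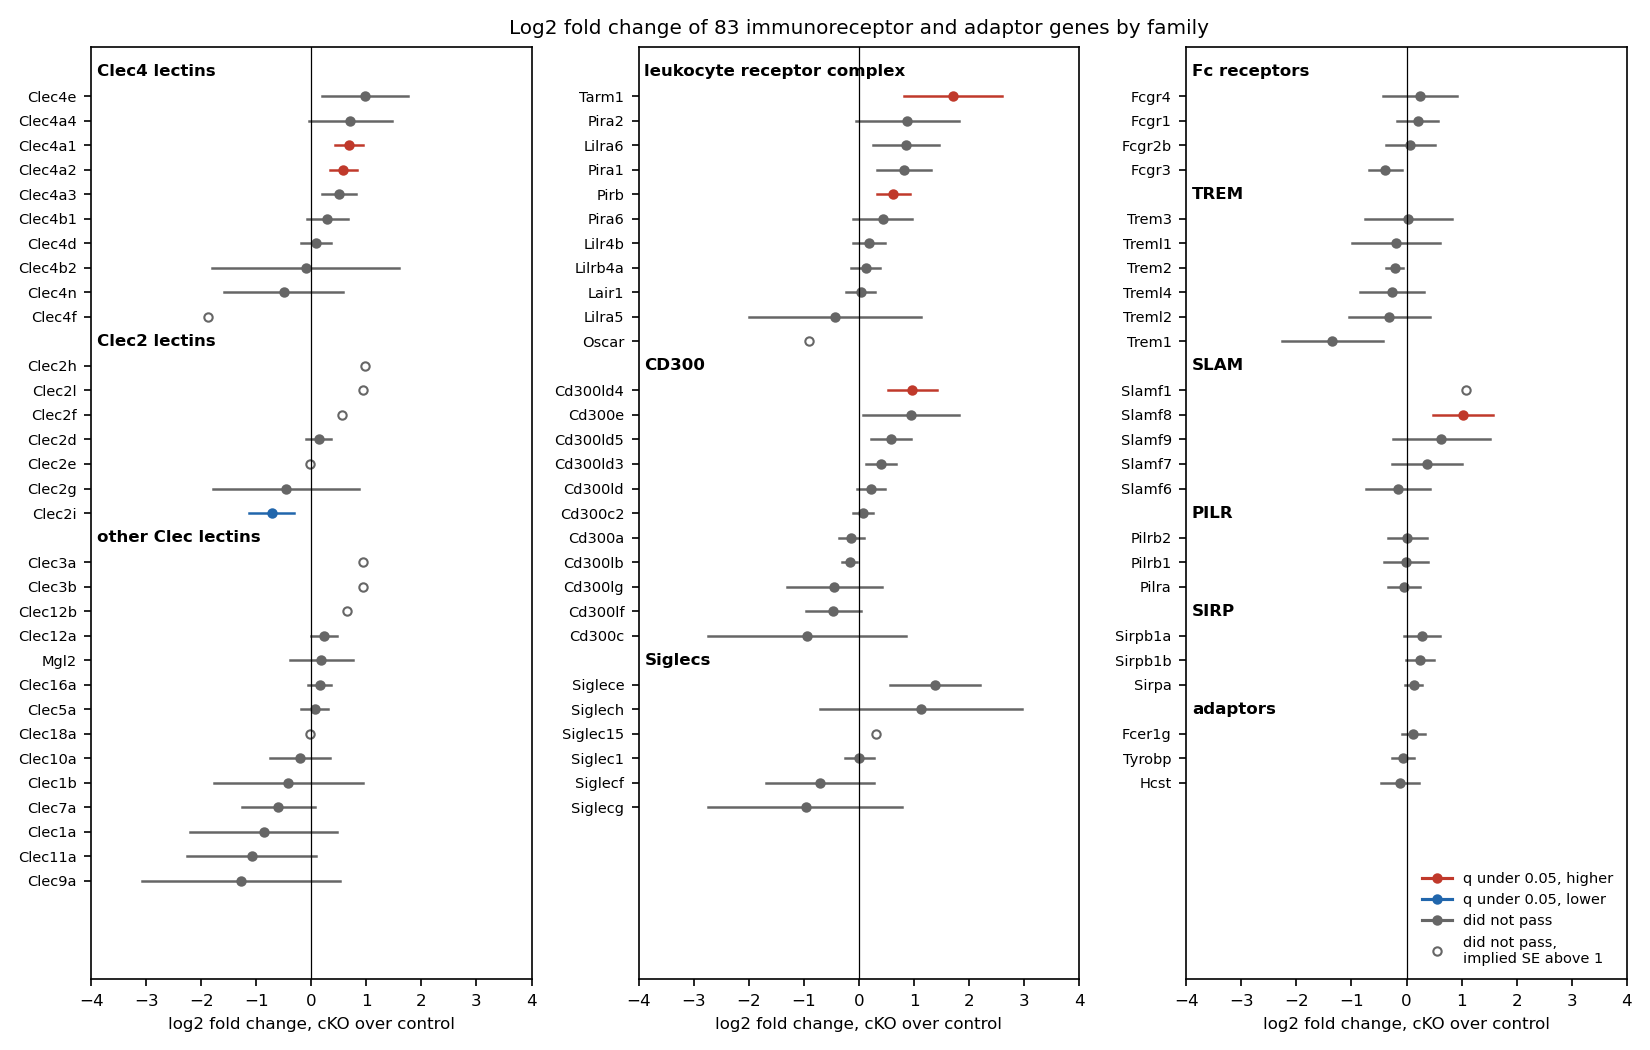
Log2 fold change, cKO over control, of each of the 83 genes in 12 families (horizontal axis); points are the ratios of the authors' deposited table and lines the 95% intervals implied by ratio and p-value. Red points rose (6 genes), the blue point fell (1 gene), grey points did not pass, and open points without a line are the 12 genes whose implied standard error was above 1 log2 unit.

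Precision differed widely among the receptor genes. Each ratio and p-value together imply a standard error, whose median in log2 units was 0.296 over the 83 genes and 0.185 over all genes in the authors' deposited table. A receptor gene with the median error had to change by about 0.99 log2 units to be called. An implied error of at most 1 log2 unit was met by 71 receptor genes, of which 9.86% were called, and by 12407 of all genes, of which 2.24% were called in the authors' deposited table. None of the 3731 genes with a larger error passed, and 12 receptor genes were among them: Clec2e, Clec2f, Clec2h, Clec2l, Clec3a, Clec3b, Clec4f, Clec12b, Clec18a, Siglec15, Slamf1 and Oscar. For 8 of these the ratio and p-value were exactly those of other genes in the authors' deposited table.

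**Figure D2:**
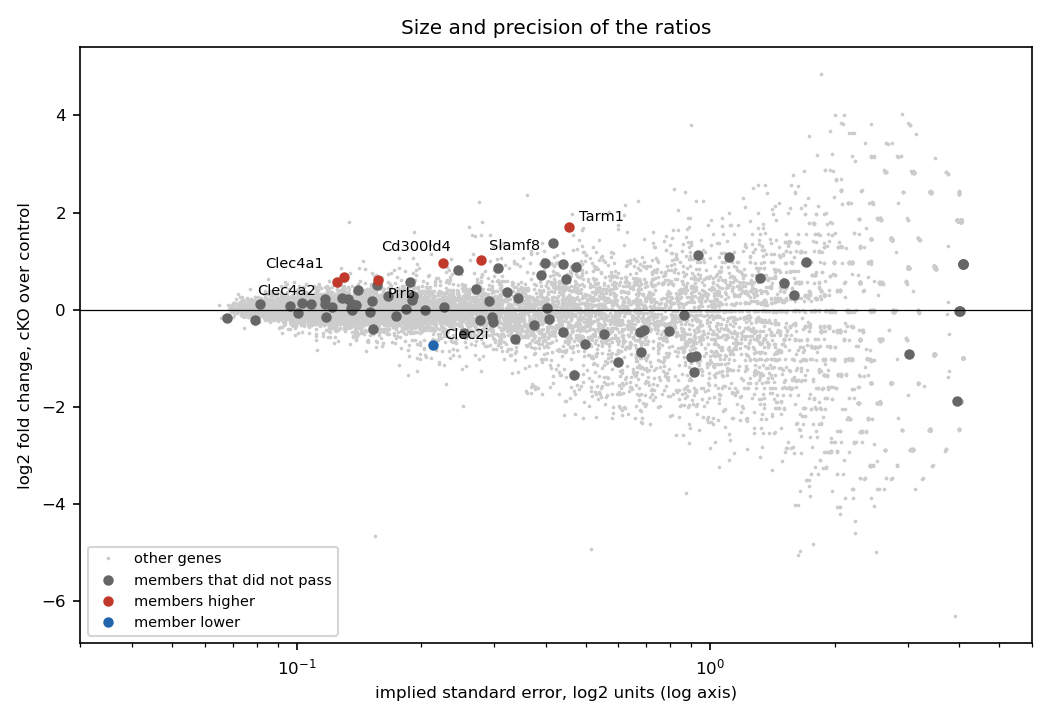
Log2 fold change, cKO over control (vertical axis), against the implied standard error in log2 units (horizontal log axis) for all 16138 genes; grey dots are other genes and large points the 83 receptor genes. The 7 called receptor genes, named in the plot, have implied errors between 0.125 and 0.455.

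The most precise increases were those of the dendritic cell immunoreceptor (DCIR) lectins, which lie in a C-type lectin cluster of mouse chromosome 6. Clec4a1, which encodes the DCIR4 lectin, rose with a log2 fold change of 0.68 in the authors' deposited table (implied 95% interval 0.43 to 0.94, q = 6.69e-05), or 1.6 times the control level. Clec4a2, which encodes DCIR1, a lectin with an inhibitory tyrosine motif, rose by 0.57 in the authors' deposited table (0.33 to 0.82, q = 0.000879). Neither transcript is easily confused with a paralog. Of the stretches of 50 bases in the longest coding transcript, 0% of those of Clec4a1 and 8.19% of those of Clec4a2 occurred in a transcript of another gene. The other DCIR lectins did not pass. Clec4a3 (DCIR3) stood at 0.51 in the authors' deposited table (0.20 to 0.81, q = 0.0583), and Clec4a4 (DCIR2, also inhibitory) at 0.71 with a wider interval (-0.05 to 1.47, q = 0.641). All 4 DCIR lectins thus had ratios above 0, from 0.51 to 0.71, though the interval of Clec4a4 included 0. Of the 50-base stretches of Clec4a4, 15.7% also occurred in a transcript of Clec4a2.

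The activating lectins of the same cluster had scattered ratios and none passed. Clec4e, which encodes Mincle, a receptor for mycobacterial glycolipid, stood at 0.97 in the authors' deposited table (0.19 to 1.75, q = 0.300). Its partner Clec4d stood at 0.09 (-0.18 to 0.36) and Clec4n, which encodes the mannan receptor Dectin-2, at -0.50 (-1.59 to 0.58) in the authors' deposited table. Clec4b1, whose product signals through the Fc receptor gamma chain, stood at 0.29 (-0.08 to 0.67), and Clec4b2 was too imprecise to place, at -0.10 (-1.80 to 1.59), in the authors' deposited table. Over the 9 measured genes of the cluster the median was 0.51 in the authors' deposited table, with 7 above 0.

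The leukocyte receptor complex of chromosome 7 holds Tarm1, Oscar, the paired immunoglobulin-like receptors and Lair1, and 2 of its genes rose. Tarm1, an activating receptor of myeloid cells that signals through the Fc receptor gamma chain, had the highest ratio of the 83 genes, 1.71 in the authors' deposited table (0.81 to 2.60, q = 0.0148), or 3.26 times the control level. Pirb, the inhibitory member of the paired immunoglobulin-like receptors, which binds class I histocompatibility molecules, rose by 0.62 in the authors' deposited table (0.32 to 0.93, q = 0.0078). Its activating counterparts had ratios of similar size but did not pass. Pira1 stood at 0.82 (0.33 to 1.30, q = 0.0513) and Lilra6, formerly Pira3, at 0.86 (0.26 to 1.46, q = 0.161) in the authors' deposited table. Pira2 was at 0.88 (-0.05 to 1.81, q = 0.620) and Pira6 at 0.43 (-0.10 to 0.96, q = 0.770) in the authors' deposited table. These copies are similar enough that reads could be split between them. Of the 50-base stretches of Pira2, 94% occurred in another gene's transcript, against 37.3% for Pirb and 28.4% for Lilra6, so their separate values are uncertain. Pira1 and Pira6 were not matched to a transcript.

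Elsewhere in this complex the ratios were near 0 or imprecise. Lair1, an inhibitory collagen receptor, was at 0.03 (-0.24 to 0.29), and Lilra5 at -0.43 (-1.99 to 1.13) in the authors' deposited table. The related pair on chromosome 10, Lilrb4a, an inhibitory receptor, and Lilr4b, stood at 0.13 (-0.14 to 0.39) and 0.18 (-0.11 to 0.48) in the authors' deposited table, and all of the 50-base stretches of Lilrb4a (100%) also occurred in an overlapping annotated gene.

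The promoter windows of 6 receptor genes are shown because neighbouring copies can share them. The windows run from 250 bases before to 50 after the annotated start, 5′ to 3′ on the gene's own strand, from RefSeq (GRCm38.p6). Capitals mark the letters GAGGAA on either strand, the core of sites bound by the myeloid factor PU.1. Pirb and Pira1 form the inhibitory and activating pair, Tarm1 lies in the same complex, Clec4a1 and Clec4a2 are the lectins that rose, and Cd300ld4 stands for the copies of the CD300 cluster.
Pirb (chr7:3720333-3720632, minus strand): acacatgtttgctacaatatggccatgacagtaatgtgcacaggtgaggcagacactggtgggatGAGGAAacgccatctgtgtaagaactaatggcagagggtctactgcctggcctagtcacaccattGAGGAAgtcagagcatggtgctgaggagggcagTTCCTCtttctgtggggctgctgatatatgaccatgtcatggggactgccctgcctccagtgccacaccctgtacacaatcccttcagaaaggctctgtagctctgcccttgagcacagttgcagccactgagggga
Pira1 (chr7:3739868-3740167, minus strand): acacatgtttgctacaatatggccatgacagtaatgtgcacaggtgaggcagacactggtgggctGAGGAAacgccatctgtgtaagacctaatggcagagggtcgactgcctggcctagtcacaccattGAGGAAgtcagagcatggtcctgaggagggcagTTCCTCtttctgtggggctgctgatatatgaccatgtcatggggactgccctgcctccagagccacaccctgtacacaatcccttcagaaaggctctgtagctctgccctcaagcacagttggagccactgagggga
Tarm1 (chr7:3502575-3502874, minus strand): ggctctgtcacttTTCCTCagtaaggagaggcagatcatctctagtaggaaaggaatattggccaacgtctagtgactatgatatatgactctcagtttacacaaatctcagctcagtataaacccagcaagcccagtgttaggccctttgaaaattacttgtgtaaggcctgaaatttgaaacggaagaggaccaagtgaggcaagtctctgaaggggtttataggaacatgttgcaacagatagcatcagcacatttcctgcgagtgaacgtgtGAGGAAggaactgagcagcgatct
Clec4a1 (chr6:122921598-122921897, plus strand): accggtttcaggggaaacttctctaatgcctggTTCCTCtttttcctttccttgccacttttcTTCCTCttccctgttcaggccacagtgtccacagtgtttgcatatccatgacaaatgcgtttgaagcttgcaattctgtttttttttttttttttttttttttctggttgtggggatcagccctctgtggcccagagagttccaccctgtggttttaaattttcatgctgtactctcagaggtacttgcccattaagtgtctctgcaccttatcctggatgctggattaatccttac
Clec4a2 (chr6:123122440-123122739, plus strand): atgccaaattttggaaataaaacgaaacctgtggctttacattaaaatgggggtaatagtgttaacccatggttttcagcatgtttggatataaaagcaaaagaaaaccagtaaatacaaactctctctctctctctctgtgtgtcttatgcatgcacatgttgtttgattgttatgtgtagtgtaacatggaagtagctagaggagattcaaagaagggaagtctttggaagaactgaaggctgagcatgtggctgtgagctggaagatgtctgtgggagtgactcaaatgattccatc
Cd300ld4 (chr11:115026884-115027183, minus strand): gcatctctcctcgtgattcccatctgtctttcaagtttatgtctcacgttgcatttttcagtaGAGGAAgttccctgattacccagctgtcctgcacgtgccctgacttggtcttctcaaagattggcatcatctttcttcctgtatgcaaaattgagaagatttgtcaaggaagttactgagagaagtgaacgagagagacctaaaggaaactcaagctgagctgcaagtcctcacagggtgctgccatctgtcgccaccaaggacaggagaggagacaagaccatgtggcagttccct
The windows of Pirb and Pira1 were 97.3% identical and both held 3 GAGGAA matches, so this inhibitory gene and this activating gene begin in almost the same sequence. Those of Cd300ld4 and Cd300ld5 were 100% identical. The windows of Clec4a1 and Clec4a2 were 56.7% identical, near the median of 58.7% over 2211 pairs of receptor gene windows, and held 2 and 0 matches. GAGGAA occurred in 62.7% of the 67 receptor gene windows, and in 5 of the 7 called genes. It occurred in 28.3% of all 27025 RefSeq windows, which include genes outside the 16138 of the authors' deposited table. The letters GAAA, NN and GAAA in a row, read by interferon regulatory factors, occurred in 17.9% of receptor gene windows against 3.49% of all. The AP-1 letters TGANTCA occurred in 13.4% against 7.93%, and the C/EBP letters TTNNGCAA in 20.9% against 10.8%. Copies with shared windows are counted separately in these shares, all motifs were searched on both strands and could overlap, and a match of letters is not a measured binding site.

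In the CD300 family, whose members recognise lipids such as phosphatidylserine, Cd300ld4 rose by 0.96 in the authors' deposited table (0.52 to 1.41, q = 0.0027). Its neighbouring copies stood at 0.58 for Cd300ld5 (0.21 to 0.95, q = 0.0925) and 0.40 for Cd300ld3 (0.12 to 0.67, q = 0.162) in the authors' deposited table, short of the threshold. Reads could be split among these copies, as 93.8% of the 50-base stretches of Cd300ld4, 100% of those of Cd300ld5 and 82.1% of those of Cd300ld3 occurred in another gene. The other members of the family had ratios on both sides of 0 and did not pass. Cd300lb, an activating member coupled to DAP12, had the most precise ratio of the 83 genes, -0.17 in the authors' deposited table (-0.31 to -0.04, q = 0.249). Cd300a, an inhibitory receptor for phosphatidylserine, stood at -0.14 (-0.37 to 0.10) and Cd300c2 at 0.07 (-0.11 to 0.26) in the authors' deposited table. Cd300lf, another inhibitory member, was at -0.47 (-0.97 to 0.03), and the activating Cd300e at 0.95 (0.08 to 1.81, q = 0.453), in the authors' deposited table. Cd300ld, Cd300c and Cd300lg, at 0.22, -0.95 and -0.45 in the authors' deposited table, did not pass either.

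**Figure D3:**
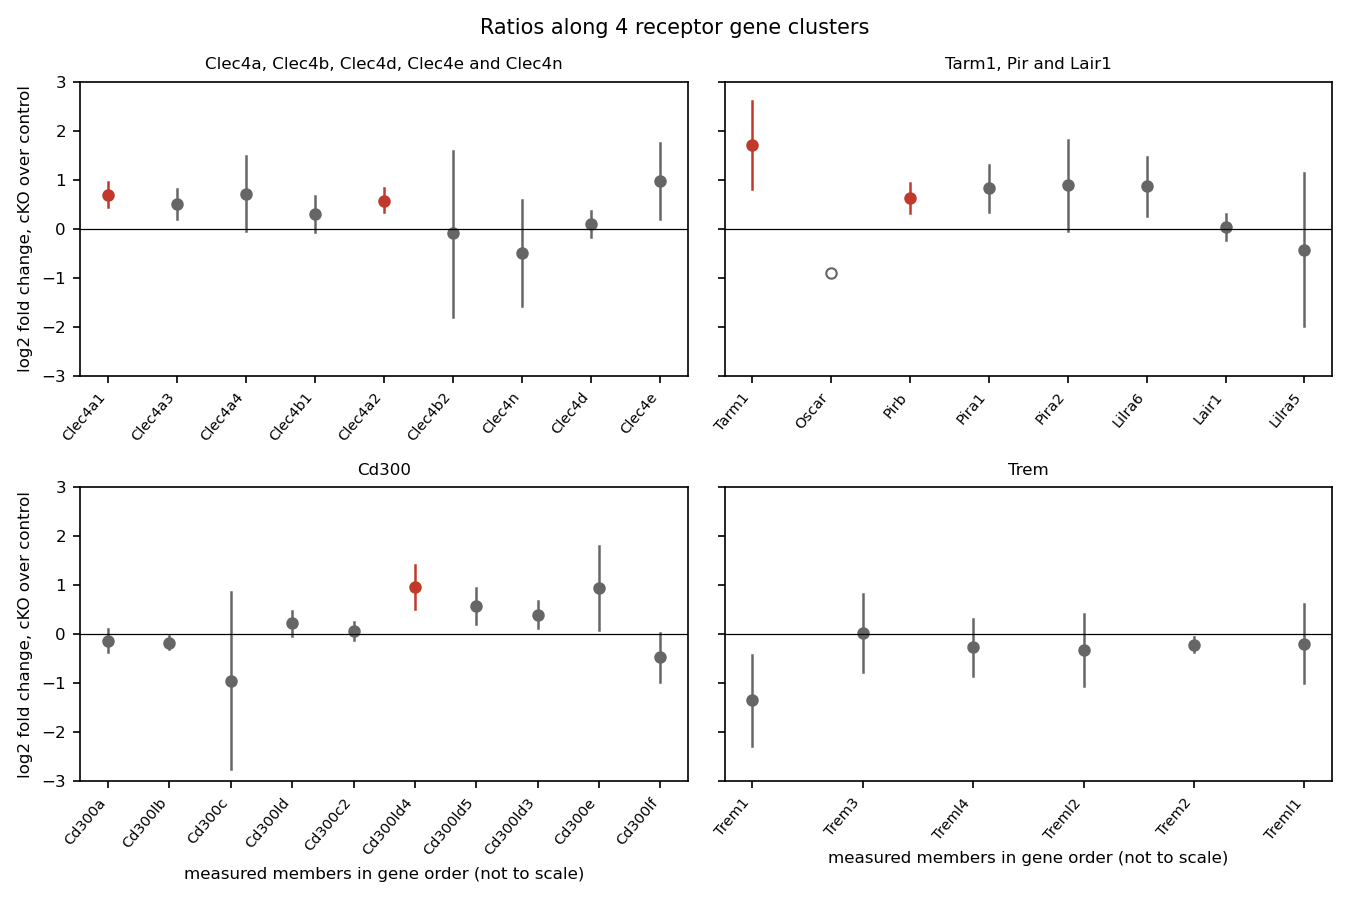
Log2 fold change, cKO over control, of the measured receptor genes in their order along 4 gene clusters, with implied 95% intervals; red points rose, grey points did not pass, and the open point is Oscar, whose implied error was above 1. Ratios of the 4 DCIR lectins lie from 0.51 to 0.71, those of Pirb, Pira1, Pira2 and Lilra6 from 0.62 to 0.88, and 5 of the 6 Trem genes lie below 0. Pira6, with a ratio of 0.43, was not placed in the gene order and is not drawn.

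Of the SLAM family, receptors that mostly bind their own kind on other blood cells, Slamf8 rose by 1.02 in the authors' deposited table (0.48 to 1.57, q = 0.0196), or 2.03 times the control level. Slamf8 is known in mouse phagocytes for limiting the oxidative burst. Its neighbour Slamf9 stood at 0.63 (-0.25 to 1.51), Slamf7 at 0.37 (-0.26 to 1.00) and Slamf6 at -0.15 (-0.73 to 0.43) in the authors' deposited table, and none of these passed.

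Clec2i, which encodes Clr-g, a lectin recognised by NKR-P1 receptors of natural killer cells, was the one receptor gene that fell, at -0.72 in the authors' deposited table (-1.14 to -0.31, q = 0.0431), or 0.605 times the control level. The related Clec2d, which encodes the natural killer cell ligand Clr-b, stood at 0.13 (-0.10 to 0.36) in the authors' deposited table. Clec2g was at -0.46 with a wide interval (-1.79 to 0.86) in the authors' deposited table, so the data do not place it on either side of 0. Farther along this cluster, Clec12a, an inhibitory receptor for uric acid crystals, stood at 0.23 (0.00 to 0.46, q = 0.563), and Clec7a, which encodes the beta-glucan receptor Dectin-1, at -0.60 (-1.26 to 0.07, q = 0.675), in the authors' deposited table. Clec9a, a receptor for the actin of dead cells and a mark of cross-presenting dendritic cells, was at -1.28 (-3.07 to 0.52), Clec1a at -0.87 (-2.20 to 0.46) and the hemITAM receptor gene Clec1b at -0.42 (-1.77 to 0.94) in the authors' deposited table.

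Lectins outside these clusters did not pass. Clec5a, which signals through DAP12, stood at 0.06 (-0.18 to 0.30) in the authors' deposited table. The galactose-type lectins Clec10a and Mgl2 stood at -0.21 (-0.75 to 0.33) and 0.18 (-0.39 to 0.75) in the authors' deposited table. Clec11a, a secreted growth factor of bone and blood progenitors, was at -1.08 (-2.26 to 0.09) and Clec16a, an endosomal protein rather than a surface receptor, at 0.15 (-0.06 to 0.35), in the authors' deposited table.

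Of the Siglecs, which bind sialic acids, none passed. Siglece, an inhibitory receptor of mouse myeloid cells, had a high ratio of 1.38 in the authors' deposited table (0.57 to 2.20) and missed the threshold narrowly (q = 0.0514). Siglec1, the macrophage adhesion receptor sialoadhesin, was at 0.00 (-0.26 to 0.27) in the authors' deposited table, with an interval that leaves room for only a small change. Siglecf, Siglecg and Siglech stood at -0.71 (-1.69 to 0.27), -0.97 (-2.74 to 0.79) and 1.13 (-0.70 to 2.96) in the authors' deposited table.

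The TREM cluster of chromosome 17 had ratios mostly on the other side of 0, with 5 of 6 below 0 and none passing. Trem1, which amplifies inflammatory responses through DAP12, stood at -1.35 (-2.27 to -0.43, q = 0.146) in the authors' deposited table. Trem2, the lipid-sensing receptor that also uses DAP12, was measured far more precisely, at -0.21 (-0.37 to -0.06, q = 0.202) in the authors' deposited table. Treml2, Treml4 and Treml1 stood at -0.32, -0.26 and -0.19 and Trem3 at 0.03 in the authors' deposited table, each with an interval that includes 0.

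None of the 4 Fc receptors for immunoglobulin G passed. Fcgr3, an activating receptor, stood at -0.39 (-0.69 to -0.08, q = 0.267) in the authors' deposited table. The inhibitory Fcgr2b was at 0.06 (-0.38 to 0.51), the high-affinity Fcgr1 at 0.20 (-0.17 to 0.57) and Fcgr4 at 0.25 (-0.42 to 0.92) in the authors' deposited table.

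The adaptors that the activating receptors share had ratios near 0. Tyrobp (DAP12) stood at -0.06 (-0.26 to 0.13), Fcer1g at 0.12 (-0.09 to 0.34) and Hcst (DAP10) at -0.12 (-0.46 to 0.22) in the authors' deposited table. These intervals leave out changes of 1 log2 unit in either direction, while smaller ones within them remain possible. The inhibitory receptor Sirpa, which binds CD47, was similarly precise at 0.13 (-0.03 to 0.29), and its activating relatives Sirpb1a and Sirpb1b stood at 0.29 (-0.04 to 0.61) and 0.25 (-0.01 to 0.50) in the authors' deposited table. The inhibitory Pilra (-0.04) and the activating Pilrb1 (-0.01) and Pilrb2 (0.01) had the ratios closest together of any family in the authors' deposited table.

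Grouped by their textbook roles, inhibitory and activating receptors both had medians just above 0. Of 16 inhibitory receptors 2 rose, Clec4a2 and Pirb, and the median was 0.09 in the authors' deposited table. Of 33 activating receptors 1 rose, Tarm1, with a median of 0.07 in the authors' deposited table. Both counts stand beside 0.849% of all genes that rose. The other 4 called genes, Clec4a1, Slamf8, Cd300ld4 and Clec2i, were among 31 genes that were put in neither group. The roles were assigned with earlier results of these data known, and the difference between the groups was not tested.

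Downstream of the receptors, 3 of 59 measured signalling genes rose and none fell in the authors' deposited table, which is beside 0.849% of all genes that rose. Fyb, which encodes the adaptor ADAP that links receptors to integrins, stood at 0.42 (0.27 to 0.57, q = 2.07e-05) in the authors' deposited table. Src, a tyrosine kinase, was at 1.01 (0.56 to 1.45, q = 0.00171), and Nfatc2, a calcium-dependent transcription factor, at 0.29 (0.12 to 0.46, q = 0.0499) in the authors' deposited table; the call of Nfatc2 was lost when only mRNA genes were adjusted over. The authors' deposited table gave the central kinase Syk a ratio of 0.38 (0.11 to 0.65, q = 0.181), short of the threshold. The phosphatases that inhibitory receptors recruit did not pass either. Ptpn6 (SHP-1) was at 0.21 (0.02 to 0.40), Ptpn11 (SHP-2) at 0.01 (-0.17 to 0.20) and Inpp5d (SHIP-1) at -0.03 (-0.21 to 0.15) in the authors' deposited table. The median of the signalling list was 0.09, and 39 of its genes lay above 0, in the authors' deposited table. At an unadjusted p under 0.05 there were 15 of the 59 above 0 and 3 below, beside 4.32% and 4.52% of all genes. The list was also measured more precisely, with a median implied error of 0.106 against 0.185 over all genes. A smaller change therefore sufficed for a call in this list.

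Among 28 measured genes for known ligands, 1 fell and none rose in the authors' deposited table, beside 0.874% of all genes that fell and 0.849% that rose. It was Apoe, a lipoprotein that binds TREM2, at -0.54 (-0.82 to -0.27, q = 0.00982) in the authors' deposited table. Cd47, which encodes the ligand of SIRP alpha, stood at 0.18 (-0.05 to 0.41) in the authors' deposited table. The collagen genes Col1a1, Col1a2 and Col3a1, whose products bind LAIR1 and OSCAR, missed the threshold, at -1.68 (q = 0.0678), -1.57 (q = 0.149) and -1.25 (q = 0.288) in the authors' deposited table. Of the 28 ligand genes, 3 lay above 0 and 6 below at an unadjusted p under 0.05, beside 4.32% and 4.52% of all genes. Of 65 further receptors with lectin or immunoglobulin domains outside the named families, 1 rose, Pecam1, an adhesion molecule with inhibitory motifs, at 0.81 in the authors' deposited table (0.45 to 1.17, q = 0.00156). A single call among 65 genes is near the background of 1.72% called in either direction, and 0.849% of all genes rose. At an unadjusted p under 0.05 there were 7 of the 65 above 0 and 1 below, beside 4.32% and 4.52% of all genes. Their median was -0.10, with 23 above 0 and 42 below, and 27 of them had implied errors above 1 in the authors' deposited table.

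**Figure D4:**
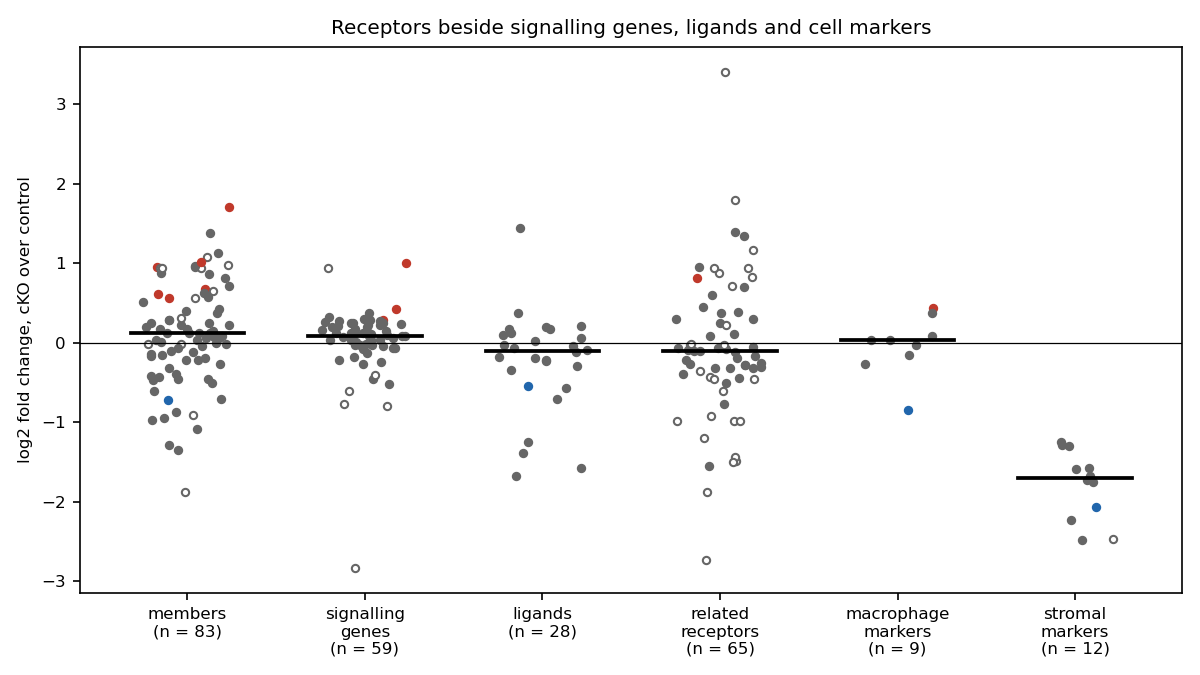
Log2 fold change, cKO over control (vertical axis), of the 83 receptor and adaptor genes beside 59 signalling genes, 28 ligand genes, 65 related receptors, 9 macrophage markers and 12 stromal markers; each point is a gene (red rose, blue fell, grey did not pass, open for an implied error above 1), horizontal jitter carries no meaning and black bars are medians. Medians are 0.12, 0.09, -0.10, -0.10, 0.03 and -1.70.

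Cell composition could be read only from ratios, so the labelled macrophage identity was not checked against expression levels, and Morrbid itself was not analysed here. The 9 measured macrophage markers that are not receptor genes ranged from -0.85 (Lyz2, q = 4.6e-06) to 0.44 (Adgre1, q = 0.0104) around a median of 0.03 in the authors' deposited table. Of the 9, 1 fell and 1 rose, beside 0.874% of all genes that fell and 0.849% that rose. Cre sits in the Lyz2 locus of the cKO samples alone, so the Lyz2 ratio cannot be read as a sign of macrophage identity. All 12 markers of fibroblasts and other stromal cells lay between -2.48 and -1.25 in the authors' deposited table. Of these 1 passed, the smooth muscle actin gene Acta2 (-2.06, q = 0.0458), beside 0.874% of all genes that fell. At an unadjusted p under 0.05, 11 of the 12 were below 0 in the authors' deposited table, beside 4.52% of all genes. Medians of the markers of neutrophils (10 genes), dendritic cells (10), osteoclasts (7) and mast cells, basophils and eosinophils (9) were -0.21, -0.16, -0.23 and -0.03 in the authors' deposited table. Single genes were called in some of these lists: the dendritic marker Tcf4 fell (-0.35, q = 0.0102) and Ccr3, the eotaxin receptor of eosinophils, rose (1.14, q = 2.77e-05) in the authors' deposited table. In the list that holds Ccr3, 3 of the 9 genes lay above 0 and 6 below. The eosinophil genes Epx (-1.50, -6.88 to 3.87) and Prg2 (-0.37, -1.25 to 0.51) were below 0 and did not pass. The median of 9 lymphocyte and natural killer cell markers was -0.66, with 8 of the 9 having an implied error above 1, in the authors' deposited table. Fewer cells of a type and less RNA per cell cannot be told apart in such bulk samples, and the part of these markers in the receptor ratios was not tested.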

How the data were processed

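RNA from 6 macrophage samples was sequenced. The tools Bowtie2, DESeq2 1.4.5 and RSEM 1.3.1 and the mouse build mm9 are named, per the submitters' processing notes, with no role or order. The authors deposited, per gene, a log2 fold change of cKO over WT (taken as the controls), its p-value and its q-value, per the file headers; no source used here states the filtering or the scaling. The deposited q-values matched those of a Benjamini-Hochberg adjustment over 16138 genes, the relative difference being at most 0.00591. No model was fitted here, as values per sample were not analysed.

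A standard error and a 95% interval were computed from each ratio and its two-sided p-value, assuming a normal (Wald) statistic. Simulated data drawn with such a statistic checked the calculation only and could not test that assumption. Members, lists and roles were chosen with earlier results of these data known, so no set test was run. Named were all members at q under 0.05 or unadjusted p under 0.05, the adaptors, and in each family the most precise member and that with the smallest p; other members were named after their values were seen. From the lists, genes at q under 0.05 were named, and Syk, Ptpn6, Ptpn11, Inpp5d, Cd47 and the collagens after seeing values. Of the members, 80 were matched by Gene ID to GENCODE M21 transcripts, in which stretches of 50 bases shared with another gene were counted, 67 to a RefSeq promoter (the first listed) and 82 to a RefSeq gene of GRCm38, used for gene order only. A cluster held members with at most 10 other coding genes between neighbours. Python 3.11.15, pandas 2.3.3, NumPy 2.4.6, SciPy 1.17.1, Biopython 1.88 and matplotlib 3.10.9 were used.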

Additional observations from a re-analysis of the deposited data

How the results depend on the processing

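Of the 6 increases and 1 decrease at q under 0.05, 4 increases (Clec4a1, Clec4a2, Cd300ld4 and Pirb) and 0 decreases remained at q under 0.01. At q under 0.1 there were 10 increases, with Cd300ld5, Clec4a3, Pira1 and Siglece added. A minimum absolute log2 fold change of 1 left 2 increases (Slamf8 and Tarm1), 0 decreases and 1 signalling gene (Src). Holm adjustment left 1 increase (Clec4a1), 0 decreases and 1 signalling gene (Fyb). Adjusting over the genes with an implied error of at most 1 gave 9 increases, with Clec4a3, Pira1 and Siglece added. Adjusting over mRNA genes alone changed no receptor call but left 2 of the 3 signalling genes (Fyb and Src, without Nfatc2), as did q under 0.01. The median of the receptor genes, 0.12 over all, was 0.07 over those with an implied error of at most 1. After seeing the data, genes without a matched transcript or with over 50% of their 50-base stretches shared were left out, which left 5 increases, without Cd300ld4, 1 decrease and a median of 0.05. No paired analysis was possible because the table holds 1 ratio per gene; refits without a sample, with another scaling or without a filter were not run for the same reason. Only the implied errors bear on depth.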

Other observations

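Slamf8 lies in the same region of chromosome 1 as Ifi208, a gene of the interferon-inducible PYHIN family, with 19 coding genes between them in RefSeq's order for GRCm38. In the authors' deposited table, the log2 fold change was -4.66 for Ifi208 (q = 5.33e-196) and 1.02 for Slamf8 (q = 0.0196). The pair was chosen after its values were seen, and no relation between them was tested.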
